A study of Mus musculus with 3 samples.

Results

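Tmem176a, Tmem176b and Ltb4r1 are 3 mouse genes associated with the Th17 state, and the histone mark H3K4me3 was examined around them in T cells with and without STAT3. They were chosen by position: the rule names an mm9 stretch of 40 kb on chromosome 6, from 48770000 to 48810000, for the Tmem176a and Tmem176b pair, and a stretch of 30 kb on chromosome 14, from 56370000 to 56400000, for Ltb4r1. These stretches held 2 of the 10971 marked H3K4me3 regions of the genome, 1 each, and 2 of 26908 phospho-STAT3 sites, 1 each. The stretches had been proposed because H3K4me3 there was low in STAT3-deficient cells. The H3K4me3 difference between genotypes is therefore a description of how they were picked and carries no test.

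The data were chromatin immunoprecipitation sequencing (ChIP-seq) reads from mouse naive CD4 T cells, sorted as CD4+CD44-CD62L+ and cultured for 72 h on antibodies to CD3 and CD28 with 10 ng/ml of IL-6 and 2.5 ng/ml of TGF-b, while IL-2, IL-4 and IFN-g were blocked. IL-6 was given again for 1 h before chromatin was taken. All cells carried Stat3fl/fl, an allele that Cre recombinase can delete, and FoxP3-GFP, which the labels list for each strain. The wild-type group had no Cre, and the STAT3-deficient group carried CD4-Cre, expressed in T cells. Wild-type cells gave an H3K4me3 library of 12281399 reads and a phospho-STAT3 library of 10127075 reads, made with an antibody labelled Phospho-STAT3(Ser727). The title of the latter library reads STAT3-ChIPSeq and does not name phosphorylation, so the name phospho-STAT3 used here follows the antibody label. STAT3-deficient cells gave an H3K4me3 library of 12075963 reads. There was 1 library per group, so nothing below has a replicate check, and every interval covers counting error only. The sources used here do not say how many animals or cultures went into a library, or their age.

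STAT3 is the transcription factor that IL-6 activates, and it is needed for the Th17 program led by the receptor RORgt. H3K4me3 is a histone mark laid down at the starts of active genes. Tmem176a and Tmem176b encode related multi-pass membrane proteins of the MS4A-like kind, known from dendritic cells and from lymphocytes that express RORgt. Ltb4r1 encodes BLT1, the high-affinity G-protein-coupled receptor for the lipid chemoattractant leukotriene B4, which guides activated T cells and granulocytes into inflamed tissue.

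The promoter windows of the members are shown because H3K4me3 was measured around these genes. They are from RefSeq on GRCm38.p6, each 250 bases before to 50 after an annotated start, 5′ to 3′ on the gene's strand. Capitals mark CG dinucleotides. The reads are on mm9, so no read was placed on these letters, and whether the windows lie inside the mm9 regions was not tested. All 3 genes had an entry: Tmem176a has 2 windows, Tmem176b 3 and Ltb4r1 1.
Tmem176a, chr6:48841233-48841532, plus strand: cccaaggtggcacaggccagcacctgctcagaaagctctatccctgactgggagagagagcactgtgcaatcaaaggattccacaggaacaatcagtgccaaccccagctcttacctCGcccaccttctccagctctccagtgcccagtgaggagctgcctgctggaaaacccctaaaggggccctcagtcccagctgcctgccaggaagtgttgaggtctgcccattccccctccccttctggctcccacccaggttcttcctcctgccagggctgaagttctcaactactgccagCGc
Tmem176b, chr6:48841088-48841387, minus strand: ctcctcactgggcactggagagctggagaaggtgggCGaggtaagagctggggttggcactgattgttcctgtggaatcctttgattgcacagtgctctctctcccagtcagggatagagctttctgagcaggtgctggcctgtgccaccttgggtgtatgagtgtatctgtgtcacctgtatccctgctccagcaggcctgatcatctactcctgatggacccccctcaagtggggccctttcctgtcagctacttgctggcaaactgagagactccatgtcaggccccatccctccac
Ltb4r1, chr14:55765712-55766011, plus strand: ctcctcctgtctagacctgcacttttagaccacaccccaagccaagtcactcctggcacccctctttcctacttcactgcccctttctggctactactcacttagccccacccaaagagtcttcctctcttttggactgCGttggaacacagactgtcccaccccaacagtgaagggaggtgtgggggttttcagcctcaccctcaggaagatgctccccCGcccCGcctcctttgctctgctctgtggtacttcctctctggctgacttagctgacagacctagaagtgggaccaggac

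The Tmem176a and Tmem176b windows above share 155 bases of DNA read in opposite directions, and the first Tmem176a window shares 208 bases with the most upstream Tmem176b window. From these starts the genes run away from each other, although their full annotated spans overlap in the gene table. The windows of all 3 genes held fewer CG dinucleotides than the median window: 2 and 5 for Tmem176a, 2, 1 and 4 for Tmem176b and 3 for Ltb4r1, against a median of 7 over all 32851 windows of the table. Between 14.1% and 43.6% of all windows held as few or fewer, so the Tmem176a window with 5 was not far from the middle. G and C made up 56.3% to 60.3% of their bases, against a median of 52.7%. The STAT-type palindrome TTCNNNGAA, its form with 1 more base between the arms, the nuclear receptor motif AGGTCA and the AP-1 motif TGACTCA were searched on both strands in all 6 windows. None of the 4 was found in any of them. Among all windows, 8.3% held TTCNNNGAA, 6.95% its longer form, 16.3% AGGTCA and 5.2% TGACTCA. The 2 palindromes can overlap each other. The absence says only that these letters are not in these windows.

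On the GRCm38.p6 gene table, Tmem176b and Tmem176a lie between Gimap3, of a family of lymphocyte GTPases, and the predicted gene Gm7932, followed by Aoc1, a diamine oxidase. Ltb4r1 lies between Ltb4r2, the low-affinity leukotriene B4 receptor, and Adcy4, an adenylate cyclase. Cideb comes before Ltb4r2, and Ripk3 after Adcy4. Since no gene annotation of mm9 was used, a region within a stretch could belong to a neighbour, and the names below follow the rule.

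Over the genome, the STAT3-deficient library was scanned for stretches it lacks. Among 85989 autosomal intervals of at least 2000 bp without STAT3-deficient H3K4me3 reads, the one richest in both wild-type libraries was on chromosome 11 from 100753872 to 100757528. It held 28 wild-type H3K4me3 and 73 phospho-STAT3 reads, and Stat3 lies on the same chromosome. The next intervals in rank were on chromosomes 6 and 18, each with 24 wild-type H3K4me3 and 23 phospho-STAT3 reads. All were picked for being empty. Stat3 itself was not placed on mm9, so the scan does not settle the label. Markers of T cells and of other cell types were likewise not placed, so the labelled cell type was not checked.

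The Tmem176a and Tmem176b pair had a clear block of H3K4me3 in wild-type cells, most of which was missing from the STAT3-deficient library. The region spanned 1800 bp on chromosome 6 from 48790000 to 48791799. There were 121 reads in the wild-type library (exact Poisson 95% interval 100 to 145) and 32 in the STAT3-deficient library (21.9 to 45.2). Scaled so that the median marked region shows no difference, this is a log2 ratio of -2.21 (exact Clopper-Pearson 95% interval -2.83 to -1.64), or 4.64-fold lower. By library totals it was 3.72-fold lower. In bulk chromatin, fewer cells with the mark and less mark per cell cannot be told apart.

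Ltb4r1 showed a shorter block, of which likewise few STAT3-deficient reads were left. The region spanned 600 bp on chromosome 14 from 56384800 to 56385399. It held 63 wild-type reads (48.4 to 80.6) and 13 STAT3-deficient reads (6.92 to 22.2). The log2 ratio was -2.57 (-3.56 to -1.70), or 5.95-fold lower, and 4.77-fold lower by library totals. The intervals of both ratios overlapped, and whether the genes differ from each other was not tested. In reads per kb of region scaled to library size (RPKM), the wild-type level was 8.55 at Ltb4r1 and 5.47 at the Tmem176 pair, and the STAT3-deficient levels were 1.79 and 1.47.

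**Figure D1:**
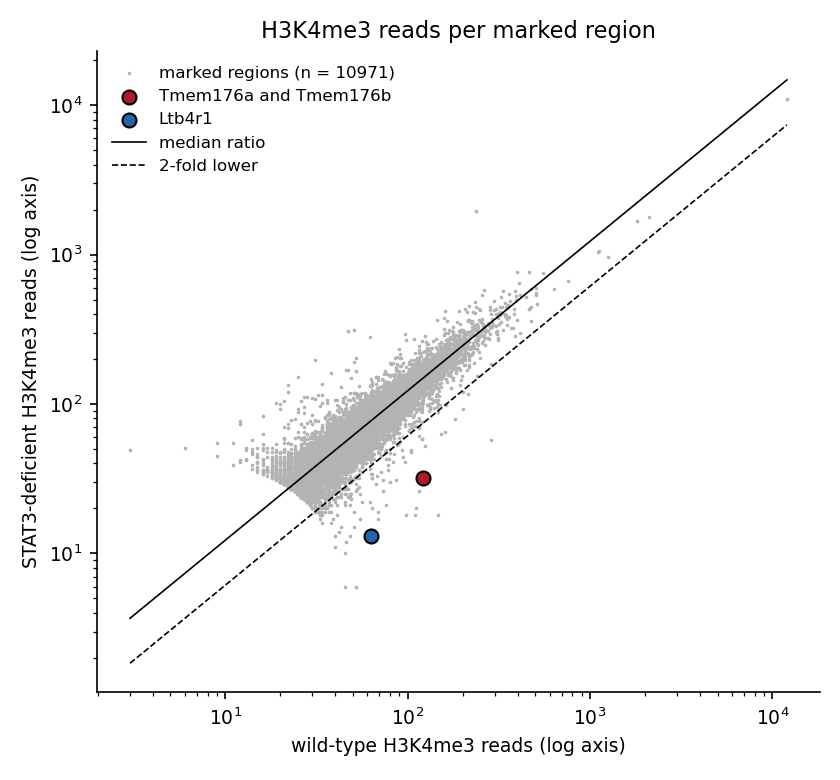
STAT3-deficient H3K4me3 reads (y, log axis) against wild-type H3K4me3 reads (x, log axis) for all 10971 marked regions (grey points), with the median ratio (solid line) and a difference of 2-fold below it (dashed line). The Tmem176 region (121 and 32 reads) and the Ltb4r1 region (63 and 13 reads) lie below the dashed line.

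Marked regions are those where the H3K4me3 libraries together gave 50 reads or more. Both members passed the size rule for a lower region: 2-fold or more below the median, with the whole interval below 0. Of the marked regions, 127 (1.16%) passed it in this direction and 111 (1.01%) in the other, and as the members were picked from this contrast, nothing is read from the share. By library totals the split was 54 lower (0.492%) and 319 higher (2.91%), with both members among the lower. The median of marked regions moves by 0.32 log2 units between these scalings. The Ltb4r1 ratio was the 8th lowest and the Tmem176 ratio the 13th lowest of 10971. At the edge of the rule, a region on chromosome 3 with 44 wild-type and 27 STAT3-deficient reads was just inside, and another on chromosome 3 with 52 and 32 was just outside.

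In wild-type cells the members were not alike in size. With 121 reads, the Tmem176 region had as many as or more than 89.4% of marked regions, and its width was at or above that of 80.4%. The median marked region held 59 wild-type reads over 1200 bp. The Ltb4r1 region was near the middle by reads (54.2%) but narrow (15.5%). In the STAT3-deficient library, the 32 reads of the Tmem176 region were at or above 10.4% of marked regions, and the 13 reads of the Ltb4r1 region at or above 0.0729%. These places rank reads not divided by width. Per kb, the STAT3-deficient level was higher at Ltb4r1 (1.79 RPKM) than at the Tmem176 pair (1.47 RPKM). The Ltb4r1 region reached the minimum of 50 reads through its 63 wild-type reads. Both members were picked for low STAT3-deficient H3K4me3, so the places only describe that choice.

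Within the Tmem176 region the loss ran along the whole block. All 9 windows of 200 bp held more wild-type than STAT3-deficient reads, with a wild-type range of 6 to 28 (median 14) and a STAT3-deficient range of 1 to 10 (median 3). In both libraries the highest window was the last, from 48791600 to 48791799, with 28 and 10 reads. Taken by kb, the first, from 48790000, held 65 and 14 reads, against 66 and 19 in the next, from 48791000. The log2 ratios of these kb were -2.51 (-3.46 to -1.66) and -2.09 (-2.91 to -1.34), so neither end of the block stood apart beyond counting error. The difference went on past the right edge: wild-type reads numbered 16 and STAT3-deficient reads 2 in the adjoining 600 bp, at a log2 ratio of -3.30 (-6.46 to -1.21). On the left the adjoining 600 bp held 8 and 5, and the interval included 0.

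**Figure D2:**
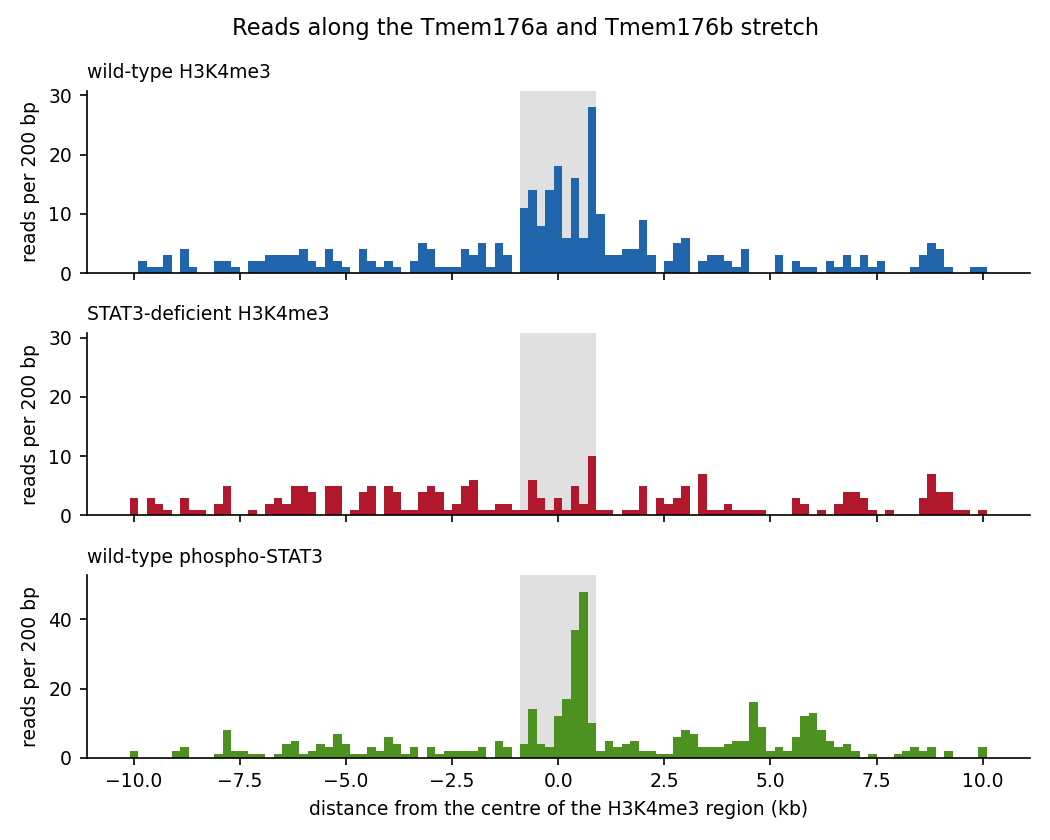
Reads per 200 bp (y) along 20 kb around the centre of the Tmem176 H3K4me3 region (x, kb), for H3K4me3 in wild-type (top) and STAT3-deficient cells (middle) and for phospho-STAT3 (bottom), with the region shaded. Wild-type H3K4me3 reaches 28 reads in the shaded region against 10 in the STAT3-deficient library, and phospho-STAT3 peaks at 48 reads in its right part.

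At Ltb4r1 the wild-type mark rose over 3 windows, with 14, 23 and 26 reads from left to right. The STAT3-deficient library held 2, 2 and 9 reads in the same windows. What remained was thus mostly in the rightmost window, from 56385200 to 56385399. The adjoining 600 bp on the right held 15 wild-type and 0 STAT3-deficient reads, where a count of 0 allows up to 3 reads. The upper end of the exact interval of that log2 ratio was -2.14. To the left, 600 bp held 8 and 10 reads, with the log2 ratio at 0.03 (-1.47 to 1.57).

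**Figure D3:**
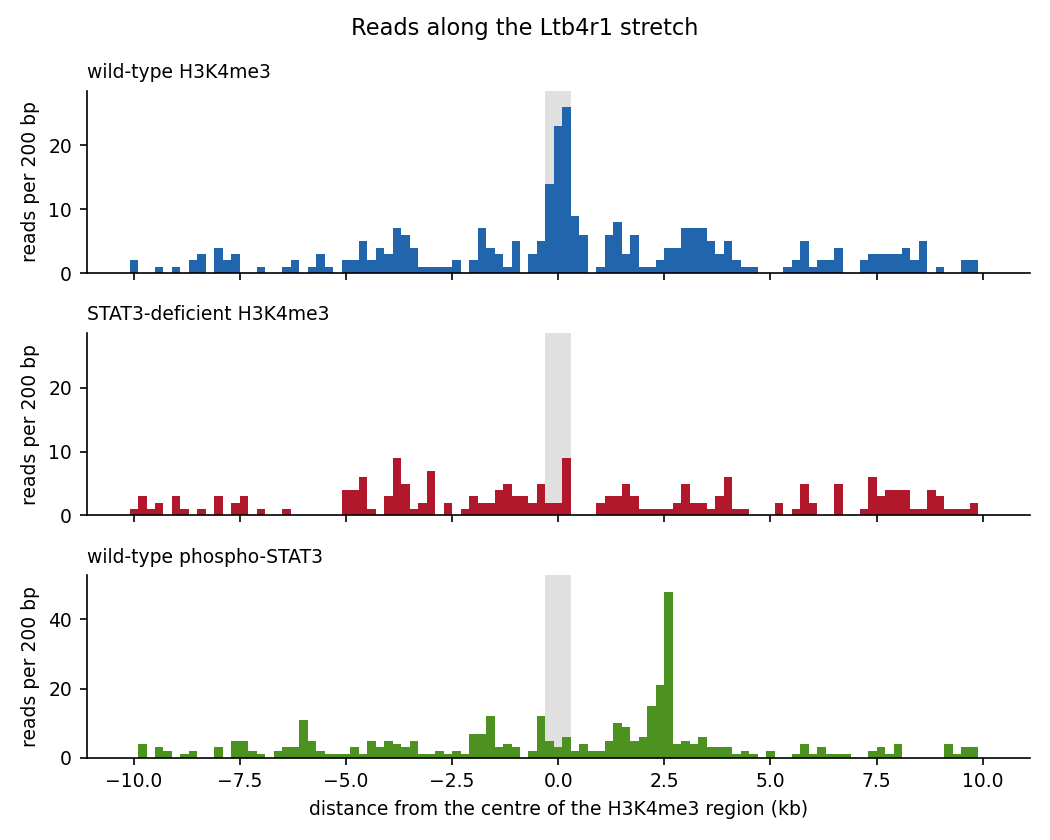
Reads per 200 bp (y) along 20 kb around the centre of the Ltb4r1 H3K4me3 region (x, kb), for the same 3 libraries, with the region shaded. Wild-type H3K4me3 reaches 26 reads in the shaded region against 9 in the STAT3-deficient library, and phospho-STAT3 peaks at 48 reads in a window centred 2600 bp right of its centre.

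Outside the blocks, both genotypes gave like numbers of reads in the Tmem176 stretch. The rest of that stretch had 281 wild-type reads against 283 from STAT3-deficient cells, for a log2 ratio of 0.03 (-0.21 to 0.28) by library totals. Library totals are the scale for background reads, since the scaling by marked regions lowers all of them: on it this ratio was -0.29 (-0.53 to -0.04). Of 191 windows outside the block, 55 held more wild-type and 64 more STAT3-deficient reads. Single kb differed in either direction. The kb from 48792000, near the right edge of the block, held 23 and 8 reads, a log2 ratio by library totals of -1.50 (-2.87 to -0.29). That from 48806000 held 4 and 14, at 1.83 (0.16 to 3.89). In the rest of the Ltb4r1 stretch there were 351 and 288 reads, a log2 ratio of -0.26 (-0.49 to -0.03) by library totals. Part of this lay right of the region: in the kb from 56388000 there were 29 and 13 reads, with the log2 ratio by library totals at -1.13 (-2.20 to -0.14). The kb from 56395000 held 13 and 4 reads, and its interval by library totals included 0.

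The STAT3-deficient library still held some reads over its own surroundings in both blocks. From the density in the rest of the stretch, 13.3 reads would be expected in the Tmem176 region, and 32 were found, 2.4-fold over it. At Ltb4r1, 5.88 would be expected and 13 were found, 2.21-fold over it. The same ratios in the wild-type library were 9.14 and 8.8. With this density subtracted, 108 wild-type and 18.7 STAT3-deficient reads remained at the Tmem176 pair and 55.8 and 7.12 at Ltb4r1. After scaling by marked regions, the STAT3-deficient remainder was 14.1% and 10.4% of the wild-type one.

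Reads of both strands showed the difference. At the Tmem176 region, plus-strand reads numbered 64 and 22, a log2 ratio of -1.84 (-2.61 to -1.12), and minus-strand reads 57 and 10, a log2 ratio of -2.81 (-3.94 to -1.82). At Ltb4r1 the plus strand held 33 and 5 reads and the minus strand 30 and 8. Strands of a library are not replicates, and here they split the same counts from which the members were picked, so they add no support. The intervals of the strands overlapped at both genes.

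Elsewhere in the neighbourhood, H3K4me3 differed less between genotypes than at the members, which had been picked for a low ratio. Within 250 kb of the Tmem176 region there were 11 other marked regions, and none passed the size rule in either direction. Their log2 ratios ran from -0.51 to 0.38, with a median of 0.02, and the nearest was 68.8 kb away. Around Ltb4r1 there were 17 others, none past the rule, from -0.95 to 0.40 with a median of -0.06. Over all 10971 marked regions, only 1.16% passed the rule as lower and 1.01% as higher. Apart from the members, the lowest ratio of each neighbourhood had its interval below 0. It ran from -0.96 to -0.05 near the Tmem176 pair and from -1.81 to -0.12 near Ltb4r1. The intervals of the remaining regions included 0. The nearest regions on either side of Ltb4r1 held 90 wild-type and 106 STAT3-deficient reads on the left and 54 and 52 on the right. Their log2 ratios were -0.06 (-0.48 to 0.36) and -0.35 (-0.93 to 0.23). Apart from its member, then, neither neighbourhood held a region past the rule. With such small shares over all regions, nothing is read from this.

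**Figure D4:**
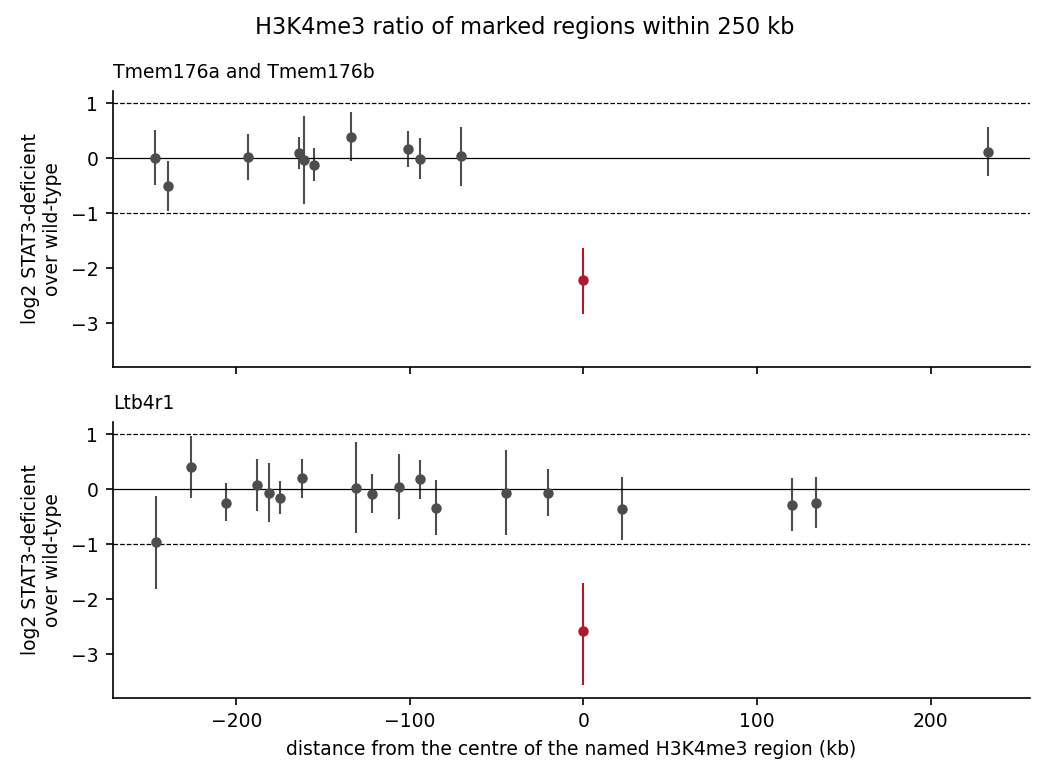
Log2 ratio of STAT3-deficient to wild-type H3K4me3 (y) of every marked region within 250 kb of each member, by distance (x, kb), with exact 95% counting intervals as bars, the members in red and dashed lines at 2-fold. The members lie at -2.21 and -2.57, while the 11 and 17 other regions lie between -0.95 and 0.40.

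The regions whose pair of H3K4me3 values was most like that of each member were found by Euclidean distance over their log2 reads scaled to library size in both libraries. Nearest to the Tmem176 region, at a distance of 0.31, was a region on chromosome 1 from 20782800 to 20784399 (116 and 26 reads). Next came regions on chromosome 2 from 31101800 to 31103199 (96 and 41 reads) and on chromosome 4 from 142887800 to 142888999 (86 and 31 reads), both at 0.49. Ltb4r1 was most like regions on chromosome 12 from 36215200 to 36216999 (51 and 15 reads, distance 0.37), chromosome 13 from 56710600 to 56711599 (48 and 13, 0.39) and chromosome 11 from 106236400 to 106237599 (69 and 17, 0.41). These likenesses rest on 2 values each and are descriptions. A phospho-STAT3 site, strong or not, overlapped the first 2 of these 6 regions and none of the other 4. The share of all marked regions that overlap any such site is not given here, so nothing is read from this split.

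In the phospho-STAT3 library of wild-type cells, the called site lay inside the H3K4me3 block at the Tmem176 pair and outside it at Ltb4r1. The Tmem176 site was on chromosome 6 from 48791200 to 48791649. It held 89 reads, of which 68 fell in its highest window of 200 bp, 11.6-fold over a local expectation of 5.86. Its excess of 62.1 reads over that expectation ranked 700 of 26908 sites, in the top 2.6%. The centre of its highest window was 550 bp right of the centre of the block. The Ltb4r1 site was on chromosome 14 from 56387450 to 56387849, with a gap of 2050 bp to the block. Its highest window held 57 of its 69 reads, 11.7-fold over an expectation of 4.88, and ranked 1142, in the top 4.24%. By reads in the highest window both were well above the median site, which had 21. By fold over the local expectation they were only a little above the median site, at 11.6 and 11.7 against 10. The local expectation counts the reads of the site itself, which holds the fold down most at sites with many reads.

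Phospho-STAT3 reads were dense in the Tmem176 block and sparse in the Ltb4r1 block. The Tmem176 region held 149 phospho-STAT3 reads, 8.32-fold over the rest of its stretch, and by reads per kb it was at or above 97.8% of marked regions. The Ltb4r1 region held 14 phospho-STAT3 reads, where 8.43 would be expected from its stretch, and was at or above 21.3% of marked regions. Both sites were strong, meaning that they were among the 25% with the largest excess (26.1 reads or more). A strong site overlapped 13.2% of marked regions and lay within 10 kb of 24.6%, and here 1 of 2 members had the former and both the latter. A set of 2 is too small to compare with those shares, and the members were chosen with their sites known.

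Within the Tmem176 block, H3K4me3 did not follow phospho-STAT3 from window to window. The window with the most phospho-STAT3 reads, from 48791400 to 48791599, held 48 of them and 6 wild-type H3K4me3 reads. The next, from 48791200, held 37 and 16, and the window with the most wild-type H3K4me3, 28 reads, held 10. In the Tmem176 site as a whole there were 31 wild-type and 12 STAT3-deficient H3K4me3 reads, and a site by the same criteria was also called there in the wild-type H3K4me3 library. No input library was analysed here, so the part of the 89 reads that open or marked chromatin alone would give was not tested. Without sites also called in an H3K4me3 library, 0 sites remained in the Tmem176 stretch. The Ltb4r1 site held 7 and 2 H3K4me3 reads and was not called in either H3K4me3 library.

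Read starts at both sites were offset by strand. The median start of minus-strand reads lay 81 bp right of that of plus-strand reads at the Tmem176 site (59 plus and 52 minus reads with 150 bp on either side). At the Ltb4r1 site it lay 112 bp to the right (36 plus and 43 minus). The Ltb4r1 site was lopsided, with 15, 21 and 48 reads in the consecutive windows from 56387200 and 4 in the next.

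**Figure D5:**
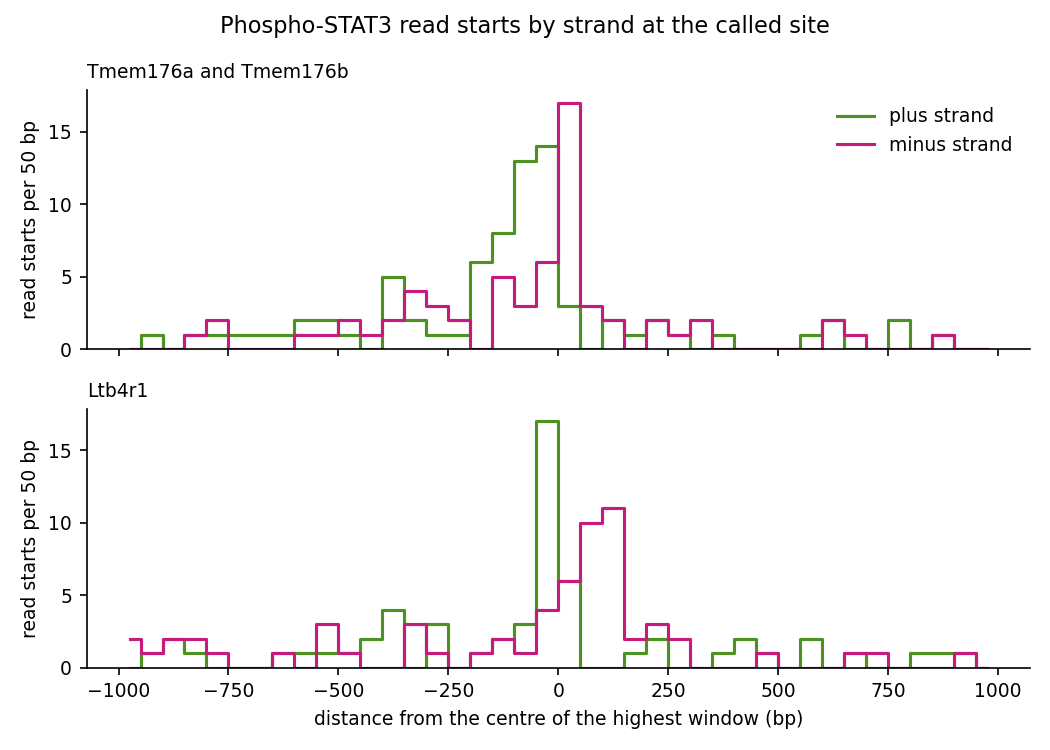
Starts of phospho-STAT3 reads per 50 bp (y) on the plus and minus strands, by distance from the centre of the highest window (x, bp), at the Tmem176 and Ltb4r1 sites. Minus-strand starts lie to the right of plus-strand starts at both sites, by medians of 81 and 112 bp.

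H3K4me3 within 1 kb of both sites had a log2 ratio below 0, at Ltb4r1 nearer to 0 than that of its block, a difference that was not tested. At the Tmem176 site it was 130 wild-type reads against 34 from STAT3-deficient cells, or -2.23 as a log2 ratio (-2.82 to -1.68), mostly the reads of the block itself. At the Ltb4r1 site, away from the block, it was 55 and 28 reads, or -1.27 as a log2 ratio (-1.98 to -0.59). Many of those reads are background, for which the scaling by marked regions lowers the ratio by 0.32.

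Beyond the called sites, lower phospho-STAT3 signal was seen further along. Right of the Tmem176 block, the kb from 48795000 and from 48796000 held 37 and 36 phospho-STAT3 reads, against 5 and 7 wild-type H3K4me3 reads. The window with the lowest p over its local expectation, from 48796700 to 48796899, held 14 reads against 3.44 (exact Poisson p = 1.5e-05), short of the limit of 1e-08. Left of the Ltb4r1 block, the window with the lowest p, from 56379100 to 56379299, held 13 reads against 2.7 (exact Poisson p = 5.4e-06). Called sites lay just outside both stretches. Beyond the right end of the Tmem176 stretch, the site from 48810150 held 17 reads and was not strong. Beyond that of the Ltb4r1 stretch, the site from 56400100 held 31 reads, also not strong. Within 20 kb of either stretch the only other strong site was on chromosome 6 from 48751900 to 48752299, with 37 reads, 37700 bp left of the Tmem176 block. It had 0 wild-type and 3 STAT3-deficient H3K4me3 reads. The sites beyond the stretches, the windows short of the limit and the single kb given here and above were picked after their values were seen.

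Reads that differ from the reference sequence were counted too. In the Tmem176 and Ltb4r1 stretches, no position had at least 3 reads from different offsets and at least 30% of reads that differed. Near the Tmem176 stretch there were 131 such positions, within 1 Mb of it, and in each library most reads there were non-reference: 97.9% for wild-type H3K4me3, 98.4% for STAT3-deficient H3K4me3 and 99.4% for phospho-STAT3. A read was counted at every such position it covers. The positions were picked from the pooled reads for such a share, so these values are descriptions. Their part in the H3K4me3 difference was not tested.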

How the data were processed

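The authors deposited aligned reads on mm9, 1 line per read of 25 bp, with at most 1 read per position and strand. The files give no value per region. SICER is named in the submitters' processing notes; its role and version, and the aligner, are not given in sources used here. Per the labels' protocols, 18 PCR cycles and a size selection near 250 bp were used. The reads carry no molecular identifiers.

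Read starts were moved 75 bp inwards, leaving out mitochondrial reads. The pooled H3K4me3 libraries gave the H3K4me3 regions: 200 bp windows with at least 12 reads (Poisson p of 1e-05, mappable share 0.8), joined over gaps of up to 600 bp, at least 2 windows. Ratios were scaled to a median log2 ratio of 0 over marked regions. Phospho-STAT3 sites were 200 bp windows in 50 bp steps with at least 10 reads, both strands and a Poisson p under 1e-08 over the larger of genome-wide and 10 kb density, merged when overlapping. Regions held 7.14% of wild-type and 8.84% of STAT3-deficient H3K4me3 reads. Region and site calling were tested on simulated data. Minus-strand mismatch codes were read from the right end of the read, since 287 of 2550 mismatches then matched a plus-strand mismatch, against 7 from the left end.

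All regions and sites in the stretches are named, with the 3 regions nearest to each member in both H3K4me3 values, leaving out X and Y. Members and lists were chosen with earlier results of these data known. Preset gene lists and cell type markers were not run, as no mm9 annotation was used here. Python 3.11.15, numpy 2.4.6, scipy 1.17.1, pandas 2.3.3 and matplotlib 3.10.9 were used.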

Additional observations from a re-analysis of the deposited data

Results flagged for a closer look

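The mismatch codes of the reads, which no comparison used, gave unlike numbers of positions around the Tmem176 pair and around Ltb4r1. Only these surroundings were counted, so which of them is unusual was not tested. Within 1 Mb on either side of its stretch, 131 positions had reads that differed from the reference, 64.2 per Mb, against 4 positions, 1.97 per Mb, around Ltb4r1. The positions were picked from the pooled reads of the 3 libraries, so the shares and intervals are conditional on that choice. Reads were counted at each position, so a read covering more than 1 position counts more than once. The intervals treat such counts as independent. At the 131 positions, 184 of 188 wild-type H3K4me3 reads (97.9%, Wilson 95% interval 94.7 to 99.2), 179 of 182 STAT3-deficient H3K4me3 reads (98.4%, 95.3 to 99.4) and 162 of 163 phospho-STAT3 reads (99.4%, 96.6 to 99.9) were non-reference. The nearest lay 35.5 kb left and 71.1 kb right of the stretch. At the 4 positions around Ltb4r1, 7 of 9, 7 of 12 and 2 of 12 reads were non-reference in the same order.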

How the results depend on the processing

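The ratio at the Tmem176 pair stayed below 0 in all 12 alternatives that gave a value and that at Ltb4r1 in all 11, and 10 of each lay within the counting interval of the reported value. Counted over the whole stretch, background included, the log2 ratios were -0.65 and -0.76, and with the density of the rest of the stretch subtracted, an alternative chosen after seeing the data, the Tmem176 ratio was -2.83. When only the STAT3-deficient library was used to call regions, neither gene had a region, and with a minimum of 100 reads Ltb4r1 had too few. The genome-wide count of 238 regions past the size rule became 373 by library totals, 375 with background density subtracted (176 higher and 199 lower), 129 when the wild-type library alone was used for calling (12 and 117), 145 when the STAT3-deficient library alone was used (123 and 22), 571 with a minimum of 20 reads (202 and 369) and 94 with a minimum of 100 reads (52 and 42). Against the genome-wide density alone, 4 phospho-STAT3 sites were called in the Tmem176 stretch and 5 in the Ltb4r1 stretch, windows of 300 bp gave 2 at Ltb4r1, and leaving out sites also called in an H3K4me3 library left 0 at the Tmem176 pair; the cause was not tested. The other 5 alternatives at each stretch kept 1 site. No paired analysis was possible because each group has 1 library. The Ltb4r1 ratio rests on 13 STAT3-deficient reads, and both ratios on 1 library per group.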
